A study of Mus musculus with 6 samples.

Results

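Hand1, Hand2, Nkx2-5, Tbx5, Tbx20, Mef2c, Isl1 and Gata5 are transcription factor genes of the developing heart, and their probe sets were taken from the array by gene symbol. The 8 genes have 20 of the 45101 probe sets on the array, and all 8 are among the 13608 genes tested. Expression was measured in mouse embryoid bodies, aggregates of embryonic stem cells (line D3) that differentiate in suspension without LIF, the factor that keeps these cells undifferentiated. In 3 samples the gelatin-coated microspheres inside the bodies were loaded with retinoic acid (RA), the vitamin A metabolite that binds nuclear receptors on DNA, and in the other 3 they carried CellTracker Red dye in place of RA. All bodies were grown from one cell line under rotary culture and sampled at day 10, and each sample was 1 array of a whole-body RNA extract. The labels call the samples triplicates without saying that they were separate cultures, so p-values measure only the spread between these arrays, which may be technical.

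Heart muscle arises from mesoderm that is specified by a network of transcription factors acting on one another's genes. NKX2-5, GATA factors, T-box factors, HAND factors and MEF2C bind together at promoters and enhancers of contractile genes, and ISL1 marks the progenitors of the second heart field, which build the outflow tract and right ventricle. RA is known in the embryo to set the posterior limit of the heart field, and both too much and too little of it disturb heart formation. Several of these factors also act outside the heart: Hand1 in trophoblast, Hand2 in limb and sympathetic neurons, Mef2c in endothelium, skeletal muscle and neurons, Isl1 in motor neurons and pancreas, and Gata5 in endoderm.

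With RA, 4 of the 8 factors fell, Hand2 the most, and 0 rose (limma, and 5 lower and 0 higher at an unadjusted p of 0.05). Hand2 was 8.12 times lower, Tbx5 3.85 times, Hand1 3.40 times and Tbx20 2.36 times. Each fold is from the gene's brightest probe set. The RA mean of Tbx5 lay below the signal filter described below. The second probe sets of Hand1 and Tbx5 showed no fall, and that of Tbx20 did not pass. Nkx2-5, Mef2c, Isl1 and Gata5 did not pass at an adjusted p of 0.05. Across all genes tested, 15.6% were lower and 14.3% were higher with RA, 30.0% in all (2127 and 1949 genes, or 651 and 1750 without scaling between arrays). The median log2 difference, RA minus control, was -0.91 over the 8 factors and 0.01 over all genes. RA and control arrays were fully separate for the 4 factors that fell and overlapped for the other 4, and 44.0% of all genes had fully separate groups. The arrays measured whole bodies, so fewer cells of a type and less RNA per cell cannot be told apart.

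The values are quantile normalized log2(signal + 16), and each gene is read from its brightest probe set unless another is named. Differences are RA minus control with the standard error (SE) of a limma fit over all genes, whose p-values were adjusted by the Benjamini-Hochberg method. A probe set was kept for testing where its mean over the 6 arrays lay above 5.74 on this scale, and the pseudocount understates the differences of dim probe sets. The median deposited signal lay between 61.7 and 65.5 on the RA arrays and between 41.4 and 63.6 on the control arrays. The Gapdh 3-prime to 5-prime signal ratio, which rises as RNA degrades, was 34.0 on RA array 1 and 3.06 to 4.74 on the other 5 arrays. For actin the same ratio stood out less, at 7.42 on RA array 1 and 3.35 to 4.90 on the other 5.

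**Figure D1:**
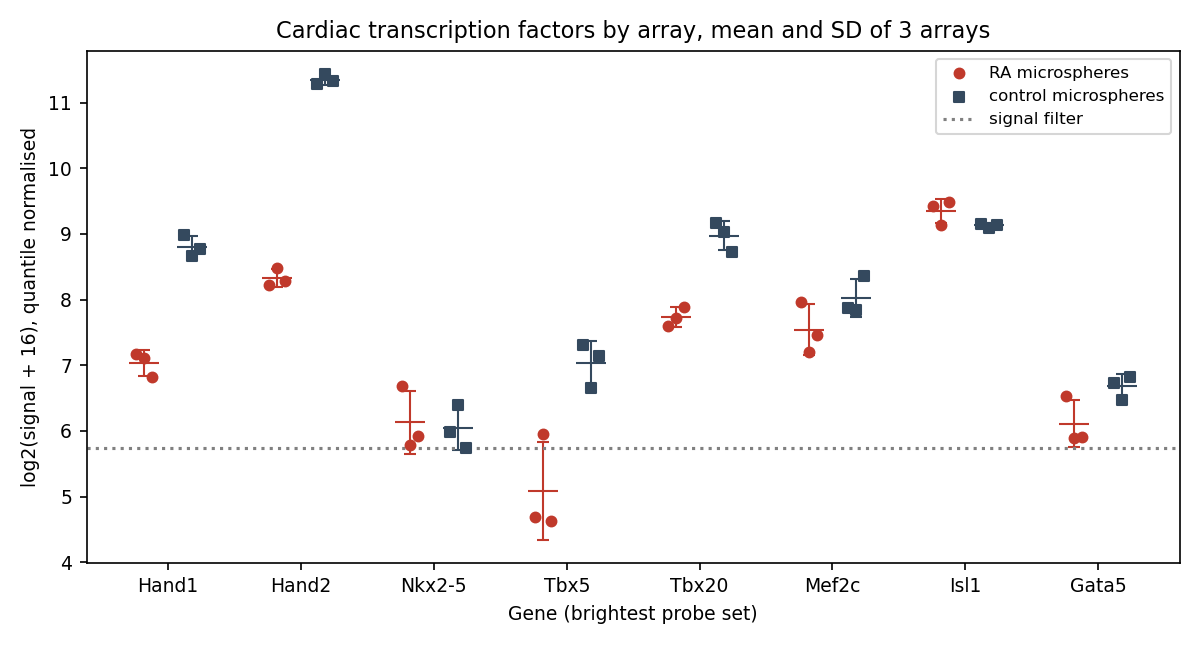
Normalized log2(signal + 16) of the brightest probe set of each factor on each array. RA arrays are red circles and control arrays dark squares, bars show the mean ± SD of 3 arrays, and the dotted line is the filter level of 5.74. The RA arrays lie below all control arrays for Hand1, Hand2, Tbx5 and Tbx20, and heights are not comparable between genes.

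Promoter sequences from RefSeq (GRCm38.p6), 250 bases before to 50 bases after a gene's start, were at hand for 6 of the 8 factors, in 8 windows, and those of 3 factors with different readouts are shown. Hand2 and Tbx20 fell and Isl1 did not pass. Capitals mark matches, on either strand, to sites bound by the factors or by RA receptors: AGATAA or AGATAG or TGATAA or TGATAG for GATA factors, TNAAGTG for NKX2-5, AGGTGT for T-box factors, CATCTG for HAND factors, AGGTCA as the core site of RA receptors, and the MEF2 site.

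Hand2, chr8:57320733-57321032, plus strand: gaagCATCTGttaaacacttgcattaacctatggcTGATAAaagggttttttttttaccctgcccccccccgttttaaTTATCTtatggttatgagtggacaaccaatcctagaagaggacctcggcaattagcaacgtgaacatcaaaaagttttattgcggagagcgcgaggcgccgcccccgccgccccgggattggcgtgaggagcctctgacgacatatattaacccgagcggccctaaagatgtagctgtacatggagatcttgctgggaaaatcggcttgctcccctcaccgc

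Tbx20, chr9:24774254-24774553, minus strand: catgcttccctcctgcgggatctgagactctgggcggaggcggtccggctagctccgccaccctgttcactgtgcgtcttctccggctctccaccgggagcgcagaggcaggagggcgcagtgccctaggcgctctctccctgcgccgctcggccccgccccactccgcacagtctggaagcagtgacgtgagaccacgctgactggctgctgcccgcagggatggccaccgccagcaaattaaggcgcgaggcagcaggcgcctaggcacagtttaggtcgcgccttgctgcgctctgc

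Isl1, chr13:116309639-116309938, minus strand: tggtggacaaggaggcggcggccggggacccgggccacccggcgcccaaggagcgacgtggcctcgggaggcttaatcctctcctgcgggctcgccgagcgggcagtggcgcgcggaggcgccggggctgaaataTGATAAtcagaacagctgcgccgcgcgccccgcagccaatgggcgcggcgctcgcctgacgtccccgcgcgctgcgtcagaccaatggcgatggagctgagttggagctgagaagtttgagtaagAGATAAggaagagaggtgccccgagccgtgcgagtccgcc

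The Hand2 window holds 2 GATA matches, which begin 215 and 172 bases before the start, and 1 HAND match at 246 bases before it. The Isl1 window also holds 2 GATA matches, 1 of them 115 bases before the start and the other just after it, and the Tbx20 window holds none of the 6 motifs. A GATA match was present in the promoter of a factor that fell and of one that did not pass. Over all 8 windows of the 6 factors, a GATA match occurred in 2, a HAND match in 2, an RA receptor core site in 2, a T-box match in 1, and an NKX2-5 or MEF2 match in 0. Among all 32851 promoter windows of this length, GATA matches were in 29.76%, HAND matches in 17.15%, RA receptor core sites in 16.26%, T-box matches in 13.74%, NKX2-5 matches in 11.54% and MEF2 matches in 3.19%. The RA receptor core sites and the T-box match were in windows of Mef2c. No match says only that these letters are not in the window.

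Hand2 encodes a basic helix-loop-helix factor that is needed for growth of the right ventricle, and it showed the largest difference of the 8 factors. Its brightest probe set, 1436041_at, read 8.22, 8.48 and 8.29 on RA arrays 1, 2 and 3, against 11.29, 11.44 and 11.33 on control arrays 1, 2 and 3 (log2 levels). The groups lay far apart, and the 3 arrays within each group lay close together. Hand2 had a log2 difference of -3.02 ± 0.10 (SE, n = 3 each, limma adjusted p = 2.39e-09). In the deposited signal this was 286, 393 and 330 on the RA arrays, against 2645, 2761 and 1569 on the control arrays. Hand2 was the 12th of 13608 genes by p-value, and 0.309% of genes had a larger fall.

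The other Hand2 probe sets gave smaller differences. Probe set 1422221_at read 6.31, 6.77 and 6.64 on the RA arrays, against 7.69, 8.15 and 7.47 on the control arrays (log2 levels), again without overlap. Its log2 difference was -1.20 ± 0.22 (SE, limma adjusted p = 0.00266 over 27022 kept probe sets). The third, 1443854_at, lay below the filter, at log2 levels of 4.24 to 4.34 with RA and 4.20 to 4.99 in control. In a fit without the signal filter it gave -0.35 ± 0.19 (SE, limma adjusted p = 0.316).

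Hand1, the paralogue of Hand2, acts in the left ventricle and in the trophoblast. Probe set 1417525_at read 7.18, 7.12 and 6.82 on the RA arrays, against 8.98, 8.66 and 8.77 on the control arrays (log2 levels). All 3 RA arrays lay below all 3 control arrays. For this probe set the log2 difference was -1.77 ± 0.15 (SE, n = 3 each, limma adjusted p = 7.55e-06). The second probe set, 1448750_at, is annotated to the same sequence record and did not show this. It read 7.22, 7.06 and 7.12 on the RA arrays, against 7.04, 6.86 and 7.33 on the control arrays, and its log2 difference was 0.06 ± 0.19 (SE, limma adjusted p = 0.877). The groups overlapped there, so whether Hand1 fell, and by how much, rests on the probe set read. The mean of both probe sets passed, at -0.85 (limma adjusted p = 0.00131). That mean contains the first probe set and is not separate support. The probe sets' letters were not analysed here.

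Tbx5 and Tbx20 are T-box factors of the heart. Tbx5 patterns the left ventricle and atria and is mutated in Holt-Oram syndrome, and Tbx20 acts in chamber growth. Tbx5 (probe set 1425695_at) read 4.69, 5.95 and 4.63 on the RA arrays, against 7.31, 6.66 and 7.14 on the control arrays (log2 levels). RA array 2 stood above the other RA arrays and below all control arrays. The log2 difference was -1.95 ± 0.38 (SE, n = 3 each, limma adjusted p = 0.00250), with a mean of 5.09 ± 0.74 with RA and 7.03 ± 0.33 in control (SD). The RA mean lay below the filter level, so Tbx5 was kept for its control arrays and its RA level is open to background. Its second probe set, 1425694_at, lay below the filter in both groups, at log2 levels of 4.91, 4.91 and 5.04 with RA and 4.31, 4.55 and 4.47 in control. There all RA arrays lay above all control arrays, and in a fit without the signal filter its log2 difference was 0.51 ± 0.16 (SE, limma adjusted p = 0.0797).

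Tbx20 (probe set 1453351_at) read 7.59, 7.72 and 7.89 on the RA arrays, against 9.17, 9.02 and 8.73 on the control arrays (log2 levels). The groups did not overlap. Tbx20 had a log2 difference of -1.24 ± 0.15 (SE, n = 3 each, limma adjusted p = 6.82e-05). A second kept probe set, 1425158_at, read 6.82, 6.08 and 5.42 with RA and 6.66, 6.74 and 6.69 in control. Its RA arrays were spread over a range that included the controls, and its log2 difference was -0.59 ± 0.33 (SE, limma adjusted p = 0.240). The third probe set lay below the filter on all 6 arrays, with deposited signals of 5.62 to 8.71, and gave -0.04 ± 0.14 without the filter (SE, limma adjusted p = 0.919).

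Mef2c encodes a MADS-box factor that switches on muscle genes and is needed for the right ventricle and for vessels. Its 5 probe sets disagreed. The brightest, 1424852_at, read 7.96, 7.20 and 7.45 on the RA arrays, against 7.87, 7.85 and 8.35 on the control arrays (log2 levels), with RA array 1 inside the control range. Its log2 difference was -0.48 ± 0.21 (SE, n = 3 each, limma adjusted p = 0.113), with an unadjusted 95% interval of -0.95 to -0.02. Without RA array 1 it passed, at -0.70 (limma adjusted p = 0.0239).

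Probe set 1421027_a_at of Mef2c, the other one kept, had deposited signals of 13.1, 17.6 and 31.5 on the RA arrays, against 107, 150 and 71.9 on the control arrays. It fell by 1.93 ± 0.28 on the log2 scale (SE, limma adjusted p = 0.000635 over kept probe sets). Its RA mean of 5.09 lay below the filter level, so it was kept for its control arrays, as for Tbx5. The dim probe sets 1451506_at and 1451507_at are annotated to the same sequence record as the brightest one. Signals of 1451506_at were 6.11, 7.21 and 24.4 with RA and 76.2, 66.9 and 56.9 in control. Those of 1451507_at were 5.46, 13.4 and 6.54 with RA and 87.7, 79.1 and 49.5 in control. In each of these 3 probe sets every RA array lay below every control array. In a fit without the signal filter the log2 differences of the 2 dim ones were -1.76 ± 0.33 and -1.99 ± 0.29 (SE, limma adjusted p = 0.00608 and 0.00154). The fifth probe set, 1421028_a_at, gave 0.28 ± 0.35 in that fit (SE, limma adjusted p = 0.719). The mean over the kept probe sets of Mef2c was lower with RA, at -1.21 (limma adjusted p = 0.000476). The call on Mef2c therefore depends on which probe set is read.

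**Figure D2:**
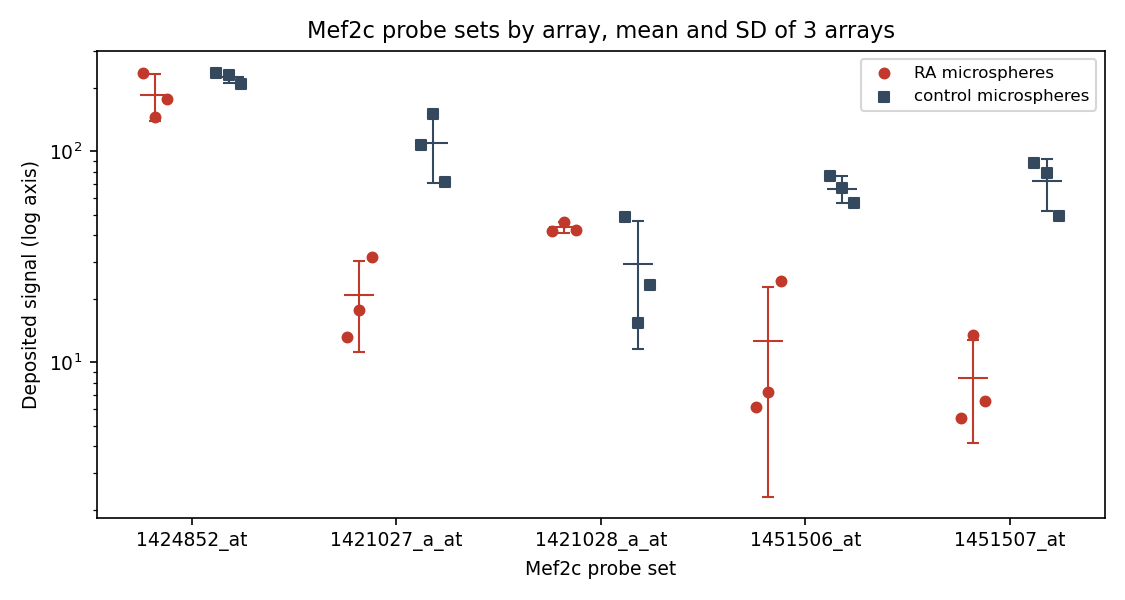
Deposited signal (log axis) of the 5 Mef2c probe sets on each array. RA arrays are red circles, control arrays dark squares, and bars show the mean ± SD of 3 arrays. Probe sets 1421027_a_at, 1451506_at and 1451507_at separate the groups, while 1424852_at and 1421028_a_at do not.

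Nkx2-5 encodes a homeodomain factor that is among the earliest markers of heart progenitors. Its single probe set, 1449566_at, read 6.68, 5.78 and 5.93 on the RA arrays, against 5.99, 6.39 and 5.74 on the control arrays (log2 levels). All 6 arrays lay near the filter level, and RA array 1 was the highest of them. Its log2 difference was 0.09 ± 0.32 (SE, n = 3 each, limma adjusted p = 0.868), with an unadjusted 95% interval of -0.62 to 0.80. It changed sign without RA array 1, to -0.18, and without control array 3, to -0.06, and did not pass in either case. Nkx2-5 is therefore given no direction.

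Isl1, a LIM-homeodomain factor of second heart field progenitors, was clearly above the filter in both groups. Probe set 1450723_at read 9.42, 9.14 and 9.49 on the RA arrays, against 9.16, 9.09 and 9.14 on the control arrays (log2 levels). RA array 2 lay inside the control range. The log2 difference was 0.22 ± 0.11 (SE, n = 3 each, limma adjusted p = 0.161), with an unadjusted 95% interval of -0.02 to 0.46. The second probe set, 1422720_at, leaned the other way, with a log2 difference of -0.32 ± 0.16 (SE, limma adjusted p = 0.184). Its arrays read 7.61, 7.69 and 7.91 with RA and 7.84, 8.25 and 8.07 in control. The mean of both was -0.05 (limma adjusted p = 0.784), so no direction is given for Isl1.

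Gata5 encodes a zinc-finger factor of endocardium and endoderm. Its 2 probe sets gave nearly the same difference, and neither passed. Probe set 1450125_at read 6.53, 5.90 and 5.90 with RA and 6.73, 6.48 and 6.83 in control (log2 levels), and only RA array 1 reached the control range. The log2 difference was -0.57 ± 0.26 (SE, n = 3 each, limma adjusted p = 0.132), with an unadjusted 95% interval of -1.15 to 0.01. Probe set 1450126_at gave -0.57 ± 0.25 (SE, limma adjusted p = 0.133), with all RA arrays below all control arrays.

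Counted by probe set, 6 of the 14 kept ones fell and 0 rose (0 also at an unadjusted p of 0.05), where 11.1% of all kept probe sets fell. They were 2 of Hand2 and 1 each of Hand1, Tbx5, Tbx20 and Mef2c, those of Tbx5 and Mef2c with RA means below the filter level. RA array 1, which had the high Gapdh ratio, was the highest RA array in 6 of these 14 probe sets. Over all kept probe sets it was the highest RA array in 37.5%. It was so in 5 of the 8 that did not pass and in 1 of the 6 that fell. A high RA array itself makes a fall less likely to pass, so nothing is drawn from that split. The part of RNA quality in these differences was not tested.

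**Figure D3:**
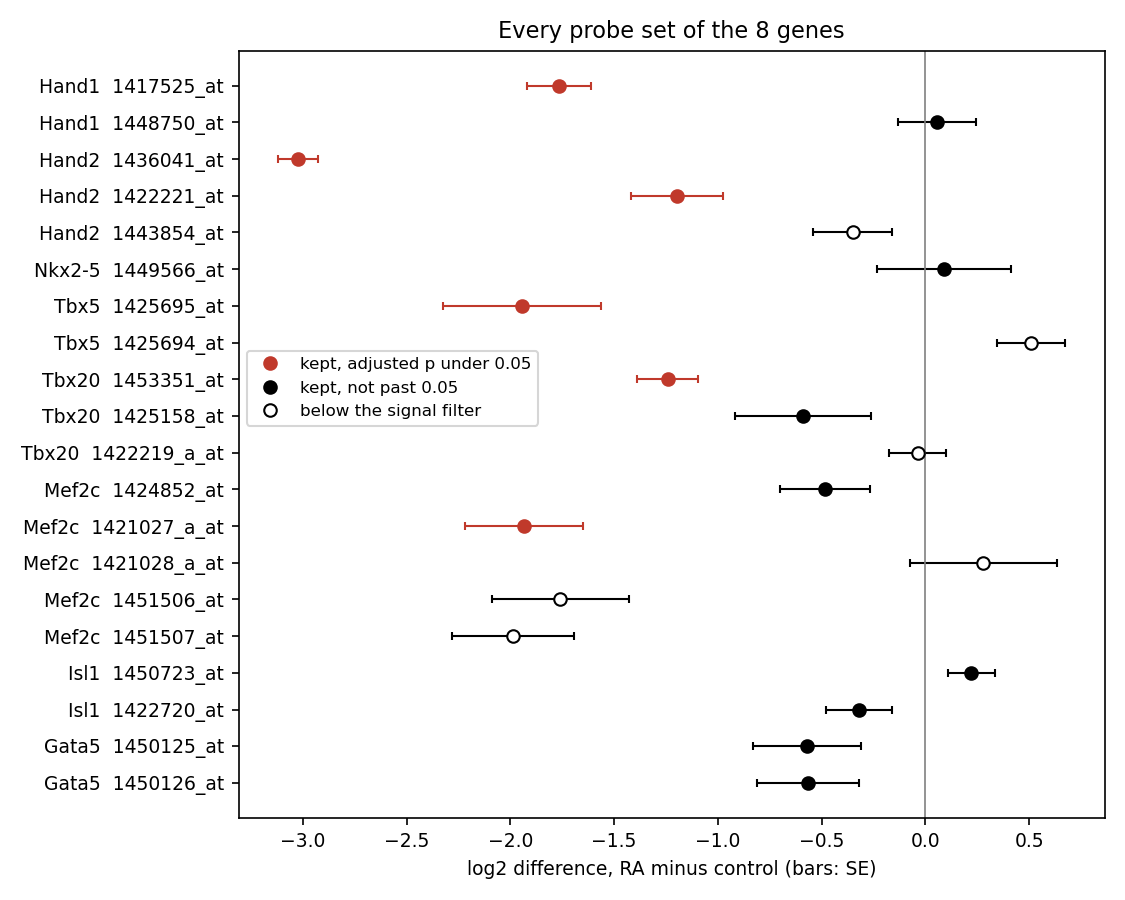
Log2 difference, RA minus control, with its SE, for all 20 probe sets of the 8 factors. Red points are kept probe sets past an adjusted p of 0.05, black points are kept ones that did not pass, and open points lay below the signal filter. The 6 red points all lie left of 0. Hand1, Tbx5, Mef2c and Isl1 each have probe sets on both sides of 0, and those of Hand2 and Tbx20 differ in size.

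The nearest tested gene on each side of each factor was also read, with 0 to 14 annotated genes that were not tested lying between. Of these 16 genes, 2 of which had no gene between, 6 were higher with RA and 0 were lower (limma, and 8 higher and 1 lower at an unadjusted p of 0.05). Over all genes tested, 14.3% were higher and 15.6% lower. Whether position on the chromosome has a part in this was not tested. Tbx3, a T-box repressor that marks the conduction system and is the nearest tested gene on one side of Tbx5 (2 genes between), was 1.52 times higher with RA (limma adjusted p = 0.00728). Emb, which encodes the adhesion protein embigin and lies near Isl1 (6 genes between), was higher by 2.14 ± 0.08 on the log2 scale (SE, limma adjusted p = 7.10e-09). Larp1, Sap30, Dpy19l1 and Tmem161b, near Hand1, Hand2, Tbx20 and Mef2c with 5, 5, 3 and 14 genes between, had log2 differences of 0.35, 0.64, 0.39 and 0.55.

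Genes with the array pattern most like a factor's were sought for the 3 factors that fell most, by the root mean square difference of mean-centred log2 values over the 6 arrays. The measure mainly follows the group difference, because the groups stand apart, and it is given as a description. Closest to Hand2 were Pmp22, a membrane protein of peripheral myelin (0.145), the antiplasmin gene Serpinf2 (0.163) and the protocadherin Fat4 (0.170), against a median of 1.54 over all 13607 other genes. Closest to Hand1 were the collagen Col14a1 (0.0976), the cholinesterase Bche (0.0986) and Sorbs2, a Z-disc adaptor of muscle (0.102), against a median of 0.930. Closest to Tbx5 were Vps45 (0.273), Ryr2, the calcium release channel of heart muscle (0.276), and Mrnip (0.289), against a median of 1.11. The log2 differences of these 9 genes ran from -3.19 to -1.57.

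Other transcription factors and cofactors of the heart went both ways. Of 37 tested genes in this list, 11 were lower and 8 higher with RA (29.7% and 21.6%, against 15.6% and 14.3% of all genes). The median log2 difference was 0.08. Gata6, a GATA factor of heart and endoderm, fell to 8.80 ± 0.08 with RA, against 10.33 ± 0.12 in control (log2 levels, SD, n = 3). That was 2.88 times lower (limma adjusted p = 5.88e-07). The homeobox cofactor Meis1 was 3.36 times lower (limma adjusted p = 8.76e-06). Zfpm2 (Fog2), a partner protein of GATA4, was 5.47 times lower (limma adjusted p = 3.21e-05), with an RA mean of 5.19 below the filter level. Foxh1, a partner of the SMAD proteins that carry Nodal signals, rose to 8.84 ± 0.38 with RA, against 6.84 ± 0.31 in control (log2 levels, SD, n = 3, limma adjusted p = 3.60e-05).

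A few genes of this list were named after their values were seen, because they are close partners of the 8 factors. Gata4, which acts with NKX2-5 and TBX5, read 7.75, 8.40 and 7.92 with RA and 8.37, 8.05 and 8.14 in control, with overlapping groups (log2 difference -0.16 ± 0.18, SE, limma adjusted p = 0.541). Myocd, the coactivator of SRF in muscle, was 2.79 times lower (limma adjusted p = 0.00646), with an RA mean of 5.73 just below the filter level. Mesp1, which marks the earliest heart-forming mesoderm, was 2.43 times higher (limma adjusted p = 0.000449).

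Contractile and other heart muscle genes, many of them known targets of the 8 factors, were mostly lower with RA. Of 29 tested, 16 fell (55.2%, against 15.6% of all genes) and 1, the gap junction gene Gja1, rose (1.49 times). The median log2 difference was -1.33. Actc1, Myh6, Tnnt2 and Myl7 (cardiac actin, myosin heavy chain, troponin T and atrial myosin light chain) were 69.2, 48.2, 34.3 and 33.2 times lower with RA (limma adjusted p at most 1.32e-08). Of the 16 that fell, 10 had RA means below the filter level, Myh6 and Tnnt2 among them (5.48 and 5.34), so they were kept for their control arrays and the count and folds are open to that selection and to background. Nppa, the atrial peptide gene on which TBX5 and NKX2-5 act together, read 6.62, 6.51 and 5.88 with RA and 7.14, 7.11 and 6.82 in control, and did not pass (log2 difference -0.69 ± 0.25, SE, limma adjusted p = 0.0583). Gja1 and Nppa are named outside the fixed rule, after their values were seen.

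Among signals that induce or restrain the heart field, 7 of 17 tested genes were higher and 4 lower with RA. These shares of 41.2% and 23.5% stand beside 14.3% and 15.6% of all genes. The Wnt antagonist Dkk1 and the Nodal, Wnt and BMP antagonist Cer1 were 4.20 and 8.52 times higher (limma adjusted p = 6.54e-07 and 9.43e-07). Of the BMP ligands that induce heart factors, Bmp2 was 2.16 times higher (limma adjusted p = 2.71e-05) and Bmp4 2.49 times lower (limma adjusted p = 0.000808). Bmp4 is named outside the fixed rule, beside Bmp2, after its value was seen. Wnt2, expressed in the early heart, had a log2 difference of -2.32 ± 0.30 (SE, limma adjusted p = 0.000142), with an RA mean of 4.98 below the filter level. Without scaling between arrays, 2 genes of this list were lower. With no signal filter, 8 were higher and 3 lower. Bmp10, Fgf8 and Nrg1 lay below the filter, and Fgf8 had mean log2 levels of 6.20 with RA and 4.65 in control. Cer1 had a control mean of 5.62, below the filter level.

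Markers of other cell types that use the same factors moved as follows, and their part in the differences was not tested. The counts here and in the next paragraph stand beside 15.6% of all genes lower and 14.3% higher. Smooth muscle and lateral mesoderm markers, which share Hand1, Hand2 and Tbx5, fell in 8 of 9 tested genes. Of these 8, Tagln had an RA mean of 5.01, below the filter level, and Cnn1 lay below the filter and was not tested. The summed normalized signal of the 9 was 1110 to 1263 on the RA arrays and 9038 to 10789 on the control arrays. Acta2 and Postn made up 37.0% to 40.8% of that sum with RA and 71.2% to 76.8% in control, and the other 7 summed to 693 to 767 with RA and 2503 to 2644 in control. Endothelial markers fell in 5 of 7, led by Cldn5 (10.2 times lower), with sums of 675 to 842 with RA and 1553 to 1634 in control. Of these 5, Cldn5 and Tek had RA means below the filter level (4.89 and 5.45). Pecam1 and Tie1 lay below the filter. Endoderm markers were divided, 4 higher and 4 lower of 8, with sums of 8960 to 10363 with RA and 23870 to 26010 in control. Afp and Ttr, which fell, made up 65.4% to 70.3% of that sum with RA and 87.9% to 89.4% in control, and the other 6 summed to 2903 to 3428 with RA and 2759 to 2907 in control. Those other 6 all passed and went both ways. Foxa2, Sox17, Cxcr4 and Foxa1 were 6.34, 4.34, 3.60 and 1.66 times higher. Apoa1 and Hnf4a were 5.63 and 1.97 times lower. These 6 are named outside the fixed rule, after their values were seen.

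Trophoblast markers, which share Hand1 as the smooth muscle and lateral mesoderm markers do, had 1 higher and 0 lower of 5 (2 and 0 unadjusted). The higher count was 0 without RA array 2 or control array 2 and 2 without control array 1. Trophoblast markers had sums of 931 to 1097 with RA and 632 to 793 in control, and Ascl2 and Elf5 lay below the filter. Of motor and sensory neuron markers, which share Isl1, 0 of 4 passed (1 of 4 at 0.05 if p-values were not adjusted), and Olig2, Chat and Slc18a3 lay below the filter. Their sums were 250 to 363 with RA and 160 to 241 in control. Of sympathetic markers, which share Hand2, 0 of 3 passed (limma, and 0 of 3 unadjusted), with Th below the filter and sums of 282 to 358 with RA and 238 to 279 in control. Of skeletal muscle markers 1 of 4 fell (Acta1, which heart muscle also uses, with an RA mean of 5.10 below the filter level), with Myog, Myf5, Myf6 and Myh8 below the filter and sums of 212 to 244 with RA and 269 to 317 in control. Epiblast markers rose in 8 of 8, with sums of 17502 to 17553 with RA and 3027 to 3443 in control. Utf1 only just passed (limma adjusted p = 0.0499), with overlapping groups, and is named outside the fixed rule, after its value was seen. Cdh1 and Dnmt3b made up 63.1% to 68.8% of the epiblast sum with RA and 61.0% to 65.4% in control. The rest summed to 5472 to 6471 with RA and 1077 to 1328 in control.

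**Figure D4:**
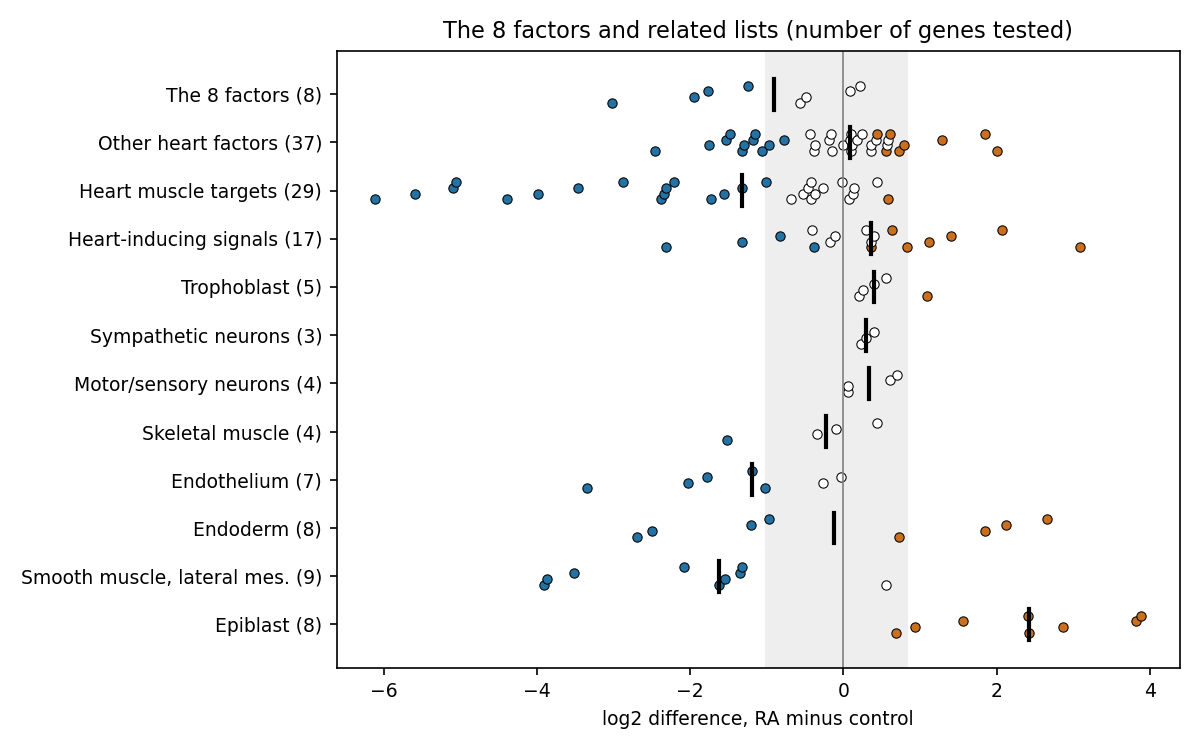
Log2 difference, RA minus control, of the 8 factors and of the tested genes in related lists. Blue points fell and orange points rose at an adjusted p of 0.05, white points did not pass, black bars are medians, and the grey band holds the 5th to 95th percentile of all genes. The 8 factors have a median of -0.91, the heart muscle targets -1.33 and the epiblast markers 2.42.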

How the data were processed

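Per the labels, total RNA of 6 embryoid body samples was labelled with biotin as cRNA and read on Affymetrix mouse arrays, and the authors deposited a linear signal intensity for each probe set, made with the GCOS software at default settings. The version of GCOS, the signal parameters and detection calls were not given in the sources used here. The 2% trimmed mean of the deposited signal ran from 108 to 191 between arrays, so the values carry no common scaling.

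The 64 control probe sets were left out, 16 was added as a pseudocount, and log2 values were quantile normalized. The 27022 of 45037 probe sets with a mean above the 40th percentile (5.74) were kept. Each of the 13608 genes tested was read from the brightest of its kept probe sets that name 1 gene. Symbols came from the array annotation, in which 34945 probe sets name 1 gene, of which 34741 matched the GRCm38.p6 RefSeq table. RA was compared with control by limma 3.58.1 under R 4.3.3 (linear fit, eBayes with trend, two-sided, no covariates, Benjamini-Hochberg over all genes). On data simulated over 13608 genes, 100 genes were given a log2 change of 1 and 100 a change of 2. The fit recovered 53% and 89% of these, and 2.74% of the calls were genes left unaltered. Far fewer genes were changed there than the 30.0% called in the data, so these shares do not carry over directly. The number of arrays limits precision.

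The members, the related lists and the tests were chosen with earlier results of these data known. Named were all 8 factors with every probe set, up to 4 genes of a list with the smallest p (fewer for the cell type marker lists), and the closest patterns. Other genes are said to be outside this rule, apart from the nearest tested genes on the chromosome, the 2 brightest genes of a marker sum and genes named for lying below the filter. Replicate numbers did not pair arrays: deviations of same-numbered arrays correlated at -0.09, -0.01 and -0.03. Alternatives covered scaling, pseudocount, filter, probe set choice, variance model, replicate block and left-out arrays.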

Additional observations from a re-analysis of the deposited data

How the results depend on the processing

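The calls on Hand1, Hand2, Tbx5 and Tbx20 kept their direction and passed under every alternative in which they were tested: 16 each, and 15 for Tbx5, which was filtered out above the 60th percentile. Their log2 differences ranged from -1.90 to -0.85 for Hand1, -3.08 to -2.11 for Hand2, -2.77 to -1.10 for Tbx5 and -1.39 to -0.92 for Tbx20. No alternative set out to read a gene from its other probe set alone. Read that way, 1448750_at of Hand1 (0.06) and 1425158_at of Tbx20 (-0.59) did not pass. For Tbx5, 1425694_at, which lay below the filter, leaned the other way (0.51). For Hand2, 1422221_at did pass (-1.20). Gata5 passed under 0 of 15 (-0.78 to -0.35), Nkx2-5 under 0 of 15 and Isl1 under 0 of 16. Mef2c passed with the mean of its kept probe sets (-1.21) and without RA array 1, and over single left-out arrays it ran from -0.70 to -0.31. Nkx2-5 ran from -0.18 to 0.27 over single left-out arrays and was -0.34 without RA array 1 and control array 3 together. Isl1 ran from -0.049 with the mean of its probe sets to 0.52 without scaling between arrays. Without scaling between arrays 651 genes were lower and 1750 higher, against 2127 and 1949, so 72.9% of calls were higher against 47.8%, the median of all genes moved to 0.26, and 2 heart-inducing signals were lower against 4. With the filter at the 60th percentile 10 heart muscle genes were lower, against 16, with fewer genes tested, as were 3 endothelial markers, against 5, and 0 skeletal muscle markers, against 1. Without scaling 1 motor or sensory neuron marker was higher, against 0. With the replicate block 1775 genes were higher and 1949 lower, and no call on the 8 factors changed. Low signal limits what can be said of Nkx2-5 and Gata5, whose group means lay between 6.04 and 6.68. It also limits Tbx5, whose RA mean lay below the filter level. For Mef2c the brightest probe set had means of 7.54 with RA and 8.02 in control, well above that level. There the limit is that the probe sets disagree, and the kept one that fell had an RA mean below the filter level.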
